A study of Mus musculus with 8 samples.

Results

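Expression of 10 genes of the glucocorticoid and metallothionein response was followed in mouse lung across 4 groups of mice. The genes were *Nr3c1*, *Fkbp5*, *Tsc22d3*, *Zbtb16*, *Sgk1*, *Dusp1*, *Cdkn1a*, *Klf9*, *Mt1* and *Mt2*, chosen by name as the receptor, a set of its known targets and the main metallothioneins. Their probes were found through the RefSeq accession that the scanner output gives for each spot, and all 10 had at least 1 probe among the 28992 genes or unnamed transcripts tested. They had 16 probes in all, of which 15 passed the filter on dim probes, and on every array the brightest probe of each gene stood well above background. The probe that did not pass was the dimmer *Cdkn1a* probe, which was well above background on 2 arrays.

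Glucocorticoids such as corticosterone enter cells and bind the glucocorticoid receptor, a transcription factor encoded by *Nr3c1* that is held in the cytoplasm by heat shock chaperones until hormone arrives. The bound receptor moves to the nucleus and switches on genes such as *Fkbp5*, *Tsc22d3*, *Zbtb16*, *Sgk1*, *Dusp1*, *Cdkn1a* and *Klf9*, several of which dampen inflammatory signaling or feed back on the receptor. Metallothioneins are small cysteine-rich proteins that bind zinc and other metals, and their genes respond to metals through the transcription factor MTF1 as well as to glucocorticoids and inflammation. In asthma, inhaled glucocorticoids that act through the same receptor are a standard treatment.

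Total RNA came from whole lungs of 8 female BALB/c mice, bought at 4 weeks of age, housed for 2 weeks and then fed for 70 days. NT mice ate standard feed and never met the allergen ovalbumin (OVA), whereas Ctrl-F mice ate the same feed and were both immunized and challenged with OVA. Cap-F mice were treated as Ctrl-F mice but their feed held particles of carbonate apatite, a calcium mineral, and in ODNcap-F feed the same kind of particles carried a CpG oligodeoxynucleotide, a short DNA that stimulates Toll-like receptor signaling. All 3 challenged groups received OVA with aluminum oxide gel intraperitoneally on Days 42, 49 and 56 and inhaled OVA daily from Day 63 to Day 69, and their lungs were taken 24 h later, on Day 70. NT mice were untreated, and no injection or inhalation is listed for them. In comparisons with NT, OVA therefore cannot be told apart from the aluminum oxide gel, the injections or the inhalation sessions. Challenge below stands for all of these together. Every group held 2 mice, with 1 single-color array per mouse, and the labels and methods name no glucocorticoid treatment.

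All arrays lay on 1 slide, with NT and Ctrl-F in 1 row and Cap-F and ODNcap-F in the other, so row and group cannot be told apart for Cap-F or ODNcap-F against NT or Ctrl-F. On single arrays 61.3% to 65.0% of probes passed the scanner's test against background, and no spot was saturated. Markers of lung cell types moved with challenge, given as the range of their sums on the linear scale and their calls in Ctrl-F against NT. The alveolar type 2 sum was 396000 to 402000 in NT and 355000 to 370000 in the challenged mice (3 of 5 markers fell), and that of club cells 423000 to 453000 against 223000 to 255000 (2 of 3 fell). The alveolar macrophage sum was 22500 to 23100 in NT and 148000 to 154000 in the challenged mice (3 of 5 markers rose and 1 fell), that of eosinophils was 1320 to 1400 against 4600 to 6040 (5 of 5 rose), that of B and plasma cells 8250 to 11400 against 112000 to 125000 (5 of 5 rose), and that of goblet cells 1830 to 3280 against 121000 to 207000 (5 of 5 rose). The alveolar type 1 sum was 215000 to 223000 in NT and 101000 to 124000 after challenge (4 of 4 tested fell), and that of capillary endothelium was 83200 to 83800 against 41000 to 52700 (4 of 5 fell). A linear sum is weighted to its brightest markers, so it need not follow the number of cells. For alveolar macrophages the brightest was *Chil3*, at log2 intensities of 13.93 and 14.05 in NT and 16.85 and 16.81 in Ctrl-F. *Marco* of the same list went from 10.20 and 10.04 to 6.73 and 5.55. In challenged mice *Clca1* was the brightest goblet cell marker and *Jchain* the brightest of B and plasma cells. The brightest club cell marker, *Scgb1a1*, was at 17.52 to 17.64 on all arrays, and the brightest alveolar type 2 marker, *Sftpc*, at 17.60 to 17.64. These were the highest values of all markers listed. *Scgb3a2* of the club cell list went from 16.79 and 17.10 in NT to 12.95 and 12.70 in Ctrl-F. The part of these shifts in the results below was not tested.

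Upstream DNA is shown for the metallothioneins, which rose after challenge, for *Dusp1*, which fell, and for *Sgk1*, which did not pass the test, so that levels can be read beside the sequence. RefSeq start sites (build GRCm38.p6) gave upstream windows of 250 bases for 8 of the 10 genes, 16 windows in all, and none for *Zbtb16* or *Nr3c1*. For the metallothioneins the capitals mark the core of the metal response element, searched on both strands as TGCACNC or TGCGCNC. For the others they mark the receptor's short site AGAACA, its full element, made of AGAACA and TGTTCT parted by any 3 bases so that the short site stands in it in both orientations, the E-box CACGTG bound by clock factors, or the cyclic AMP element TGACGTCA. The *Mt2* window is chr8:94172368-94172617 and that of *Mt1*, its neighbor on the chromosome, chr8:94178839-94179088, both on the plus strand. The *Sgk1* window shown is 1 of 6 start sites, chr10:21993640-21993889 on the plus strand, and that of *Dusp1* is chr17:26508473-26508722 on the minus strand.
Mt2 upstream window: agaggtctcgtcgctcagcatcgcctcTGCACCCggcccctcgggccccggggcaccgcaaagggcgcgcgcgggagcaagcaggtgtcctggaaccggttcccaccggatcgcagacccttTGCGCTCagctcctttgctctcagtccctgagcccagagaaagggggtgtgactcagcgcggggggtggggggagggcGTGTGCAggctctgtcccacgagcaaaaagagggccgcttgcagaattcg
Mt1 upstream window: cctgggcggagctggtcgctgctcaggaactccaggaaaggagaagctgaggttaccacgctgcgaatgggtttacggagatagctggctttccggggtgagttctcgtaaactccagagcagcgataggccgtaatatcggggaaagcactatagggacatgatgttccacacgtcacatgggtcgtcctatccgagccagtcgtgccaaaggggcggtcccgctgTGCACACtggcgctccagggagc
Sgk1 upstream window: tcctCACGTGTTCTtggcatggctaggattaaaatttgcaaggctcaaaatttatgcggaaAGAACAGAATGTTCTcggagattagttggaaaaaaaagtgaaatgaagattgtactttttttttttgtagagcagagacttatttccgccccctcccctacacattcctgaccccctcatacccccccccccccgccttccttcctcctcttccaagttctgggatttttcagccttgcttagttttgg
Dusp1 upstream window: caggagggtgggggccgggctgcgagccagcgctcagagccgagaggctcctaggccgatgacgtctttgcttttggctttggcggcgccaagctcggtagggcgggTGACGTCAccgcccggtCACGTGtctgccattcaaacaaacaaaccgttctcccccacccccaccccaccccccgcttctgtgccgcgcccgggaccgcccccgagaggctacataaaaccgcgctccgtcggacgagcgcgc
*Mt2* held 3 metal response cores and *Mt1* held 1, and 21.4% of the 32851 windows of all genes held at least 1 of either core. The full receptor element lay 189 bases before this *Sgk1* start site, counted from its first base, and occurred in 3 windows of all genes (0.00913%). The same window held another copy of the short site that overlapped an E-box. The short site occurred in 16.1% of all windows, and outside *Sgk1* it was found for *Tsc22d3* alone of the 8 genes. *Dusp1* held 1 cyclic AMP element (1.55% of windows) and 1 E-box (6.02%), *Fkbp5* held 1 E-box, and no window of *Klf9* or *Cdkn1a* held any of these motifs. A match describes these letters within these windows and nothing about binding.

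The receptor gene was lower in every challenged lung. *Nr3c1* (NM_008173) gave log2 intensities of 13.65 and 13.77 in the NT mice, 12.73 and 12.70 in Ctrl-F, 12.92 and 12.86 in Cap-F, and 12.69 and 12.71 in ODNcap-F. Replicates lay close together, and no challenged mouse overlapped the NT mice. In Ctrl-F against NT the log2 fold change was -0.99 (SE 0.07, adjusted p = 0.000138, limma fit over all probes with Benjamini-Hochberg adjustment), in Cap-F it was -0.81 (adjusted p = 0.000324), and in ODNcap-F it was -1.01 (adjusted p = 0.000153). A dimmer probe for the same transcript moved the same way, by -0.74 in Ctrl-F and ODNcap-F and by -0.65 in Cap-F. Because whole lungs were measured, fewer cells of a type and less RNA per cell cannot be told apart, here and for every gene below.

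**Figure D1:**
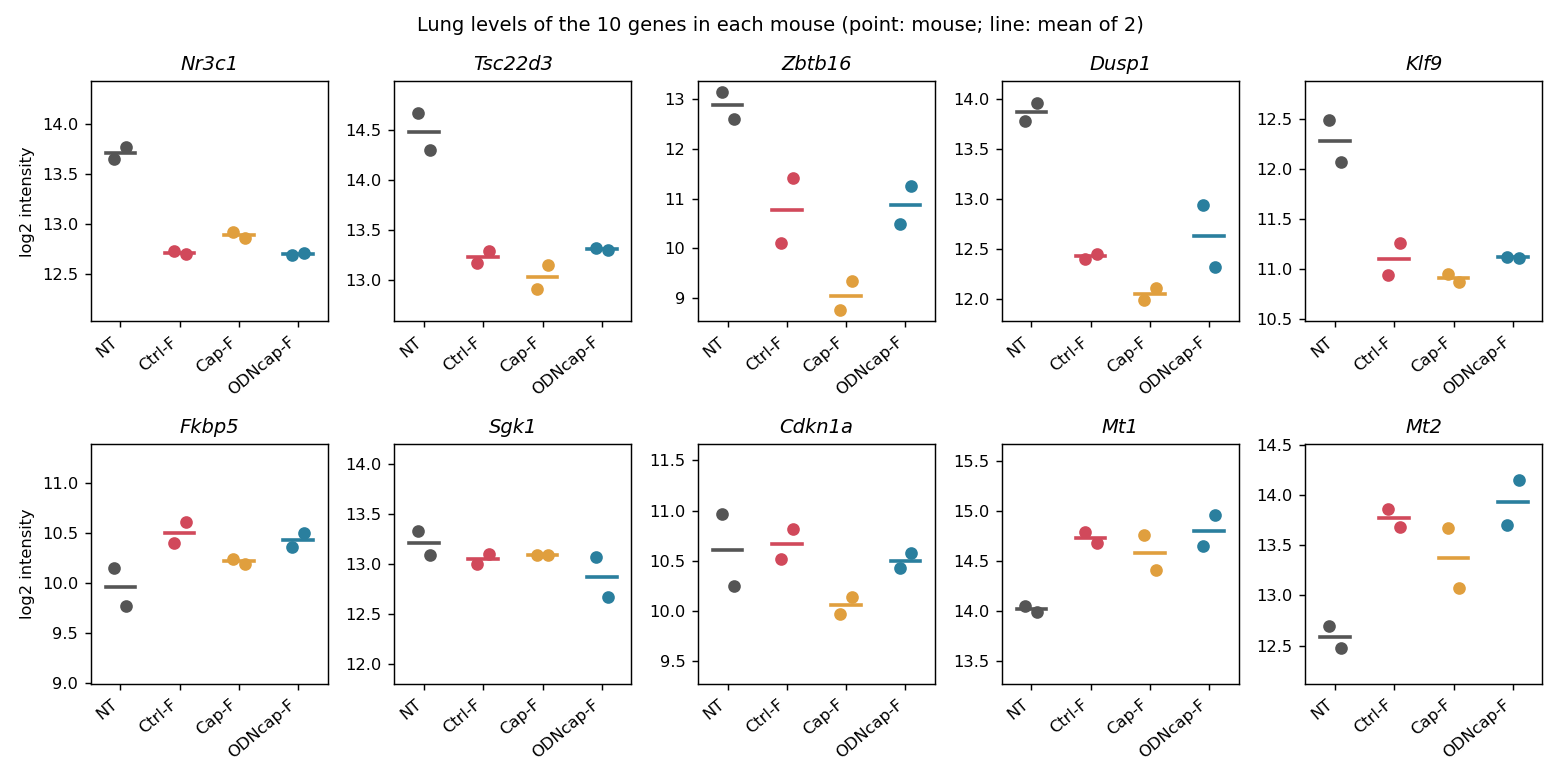
Log2 intensity (y axis, quantile normalized) of each of the 10 genes in every mouse, by group, with a line at the mean of the 2 mice and with axes that differ between panels. *Nr3c1*, *Tsc22d3*, *Zbtb16*, *Dusp1* and *Klf9* lay lower in all 6 challenged mice than in both NT mice, and *Mt1* and *Mt2* lay higher.

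The targets fell into a group that was lower, 1 gene that was higher, and a pair that did not pass the test. *Tsc22d3*, *Dusp1*, *Klf9* and *Zbtb16* fell in all 3 challenged groups.

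*Tsc22d3* (NM_001077364), which encodes GILZ, a leucine zipper protein that mediates anti-inflammatory effects of glucocorticoids, gave 14.66 and 14.30 in NT mice, 13.17 and 13.29 in Ctrl-F, 12.91 and 13.15 in Cap-F, and 13.32 and 13.30 in ODNcap-F. All 6 challenged mice lay about 1 log2 unit or more below the lower NT mouse. The fold change was 2.38-fold lower in Ctrl-F (log2 -1.25, SE 0.14, limma adjusted p = 0.000713), with log2 values of -1.45 in Cap-F and -1.17 for ODNcap-F. Its second probe gave log2 changes of -0.88, -1.01 and -0.77 in the same order.

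*Dusp1* (NM_013642) encodes a phosphatase that switches off MAP kinases. Its log2 intensity was 13.78 and 13.96 in NT mice, 12.40 and 12.45 in Ctrl-F, 11.996 and 12.11 in Cap-F, and 12.94 and 12.32 in ODNcap-F. The ODNcap-F mice stood further apart than the mice of any other group, and the higher of them was still below both NT mice. The log2 fold change against NT was -1.44 (SE 0.20, limma adjusted p = 0.00142) in Ctrl-F, -1.82 (adjusted p = 0.000679) in Cap-F and -1.24 (adjusted p = 0.00279) in ODNcap-F.

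*Klf9* (NM_010638), a transcription factor of the Krüppel-like family induced directly by the receptor, was at 12.49 and 12.07 in NT mice, 10.95 and 11.26 in Ctrl-F, 10.96 and 10.87 in Cap-F, and 11.12 and 11.11 in ODNcap-F. The challenged groups were close to one another, and each lay well under NT. It fell by 1.18 on the log2 scale in Ctrl-F (SE 0.16, limma adjusted p = 0.00149), by 1.36 in Cap-F and by 1.16 for ODNcap-F.

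*Zbtb16* (NM_001033324), which encodes the zinc finger transcription factor PLZF, showed the widest spread of group means of the 10 genes. Its log2 intensity was 13.15 and 12.60 in NT mice, 10.11 and 11.42 in Ctrl-F, 8.74 and 9.33 in Cap-F, and 10.50 and 11.26 in ODNcap-F. NT mice were highest and Cap-F mice lowest, with no overlap of either with another group, while Ctrl-F and ODNcap-F mice interleaved. Against NT it was 4.33-fold lower in Ctrl-F (log2 -2.11, SE 0.50, limma adjusted p = 0.0123), 14.3-fold lower in Cap-F (log2 -3.84, adjusted p = 0.00134) and 3.99-fold lower for ODNcap-F (adjusted p = 0.0158). The 2 Ctrl-F mice differed by more than 1 log2 unit, the largest gap between replicates in these genes. Without the first NT mouse the adjusted p rose to 0.0662 in Ctrl-F and 0.0811 in ODNcap-F, and without the first ODNcap-F mouse to 0.07999 in ODNcap-F. The dimmer probe was not well above background on either Cap-F array, so Cap-F has only a bound there: it was at least 8.54-fold lower than NT (limma adjusted p = 0.000963), while its log2 fold change was -1.89 for Ctrl-F mice and -1.78 for ODNcap-F mice. A bound sets the mean of the brighter group against the higher, per array, of the dim probe's own value and the lowest value among probes well above background, and here the probe's own value was the higher on both arrays.

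*Fkbp5* (NM_010220) encodes a co-chaperone that lowers the affinity of the receptor for hormone and is itself strongly induced by it. It moved the other way: log2 intensities were 10.15 and 9.77 in NT mice, 10.40 and 10.61 in Ctrl-F, 10.24 and 10.19 in Cap-F, and 10.35 and 10.50 in ODNcap-F. Every challenged mouse was above both NT mice, although the lowest of them, in Cap-F, was above the higher NT mouse by little. The log2 fold change was 0.54 (SE 0.15, limma adjusted p = 0.0196) in Ctrl-F, 0.47 (adjusted p = 0.0340) in ODNcap-F and 0.25 (adjusted p = 0.185) in Cap-F, where it did not pass. The call did not hold in Ctrl-F without the second NT mouse (log2 0.35, adjusted p = 0.0768) or without the second Ctrl-F mouse (0.0956), and in ODNcap-F it was lost without the second NT mouse (log2 0.28), either Cap-F mouse or either ODNcap-F mouse (0.0545 to 0.139). The dimmer *Fkbp5* probe gave larger differences, 1.17 (adjusted p = 0.00135) in Ctrl-F, 0.87 (0.00475) in ODNcap-F and 0.37 (0.0953) in Cap-F.

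*Sgk1* (NM_011361), a kinase that stimulates epithelial sodium transport, was nearly level, with log2 intensities of 13.33 and 13.09 in NT mice, 13.00 and 13.10 in Ctrl-F, 13.09 and 13.09 in Cap-F, and 13.08 and 12.67 in ODNcap-F. The 95% interval of the log2 difference from NT was -0.53 to 0.21 in Ctrl-F, -0.49 to 0.25 in Cap-F and -0.71 to 0.03 in ODNcap-F, so a change of more than 1 log2 unit lay outside all 3 intervals. None passed the test (limma adjusted p = 0.388, 0.519 and 0.0980), although without the first ODNcap-F mouse that group's difference was -0.54 with an adjusted p of 0.0209. Of the upstream windows of *Sgk1*, only the one printed above held the full receptor element. From which start site the measured RNA came was not examined.

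*Cdkn1a* (NM_007669), a cyclin-dependent kinase inhibitor that answers to p53 as well as to the receptor, was at 10.96 and 10.24 in NT mice, 10.51 and 10.81 in Ctrl-F, 9.97 and 10.13 in Cap-F, and 10.43 and 10.57 in ODNcap-F. The NT mice spanned the values of both Ctrl-F and ODNcap-F mice, and the Cap-F mice lay just below the lower NT mouse. The log2 difference from NT was 0.06 in Ctrl-F (95% interval -0.54 to 0.65), -0.55 in Cap-F (-1.15 to 0.04, limma adjusted p = 0.0998) and -0.10 for ODNcap-F (-0.70 to 0.49). Without the second NT mouse the Cap-F difference was -0.91 with an adjusted p of 0.0115.

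Both metallothionein genes rose. *Mt1* (NM_013602) was at 14.05 and 13.99 in NT mice, 14.79 and 14.68 in Ctrl-F, 14.76 and 14.41 in Cap-F, and 14.65 and 14.95 in ODNcap-F. *Mt2* (NM_008630) was at 12.70 and 12.48 in NT mice, 13.87 and 13.68 in Ctrl-F, 13.67 and 13.08 in Cap-F, and 13.71 and 14.15 in ODNcap-F. All 6 challenged mice were above both NT mice for each gene, and the second Cap-F mouse was the lowest challenged mouse for both.

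*Mt2* rose 2.28-fold in Ctrl-F (log2 1.19, SE 0.24, limma adjusted p = 0.00642), 1.73-fold in Cap-F (0.79, adjusted p = 0.0320) and 2.54-fold in ODNcap-F (1.34, adjusted p = 0.00415). *Mt1* rose 1.64-fold in Ctrl-F (log2 0.71, SE 0.15, limma adjusted p = 0.00797), 1.48-fold in Cap-F (0.56, adjusted p = 0.0210) and 1.72-fold in ODNcap-F (0.78, adjusted p = 0.00580). The Cap-F calls rested on few mice: without the first Cap-F mouse the log2 change was 0.39 for *Mt1* (adjusted p = 0.0930) and 0.49 for *Mt2* (0.131), without the first NT mouse the adjusted p was 0.0662 and 0.0691, and without the second it was 0.0908 and 0.139. Leaving out either Ctrl-F mouse gave 0.0502 for *Mt2* in Cap-F. A dim second *Mt1* probe, designed to a predicted transcript, gave log2 changes of 1.02, 0.65 and 1.37, of which that in Cap-F did not pass (limma adjusted p = 0.174). The mature transcripts of the 2 genes are alike, and cross-hybridization of their probes was not examined here.

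**Figure D2:**
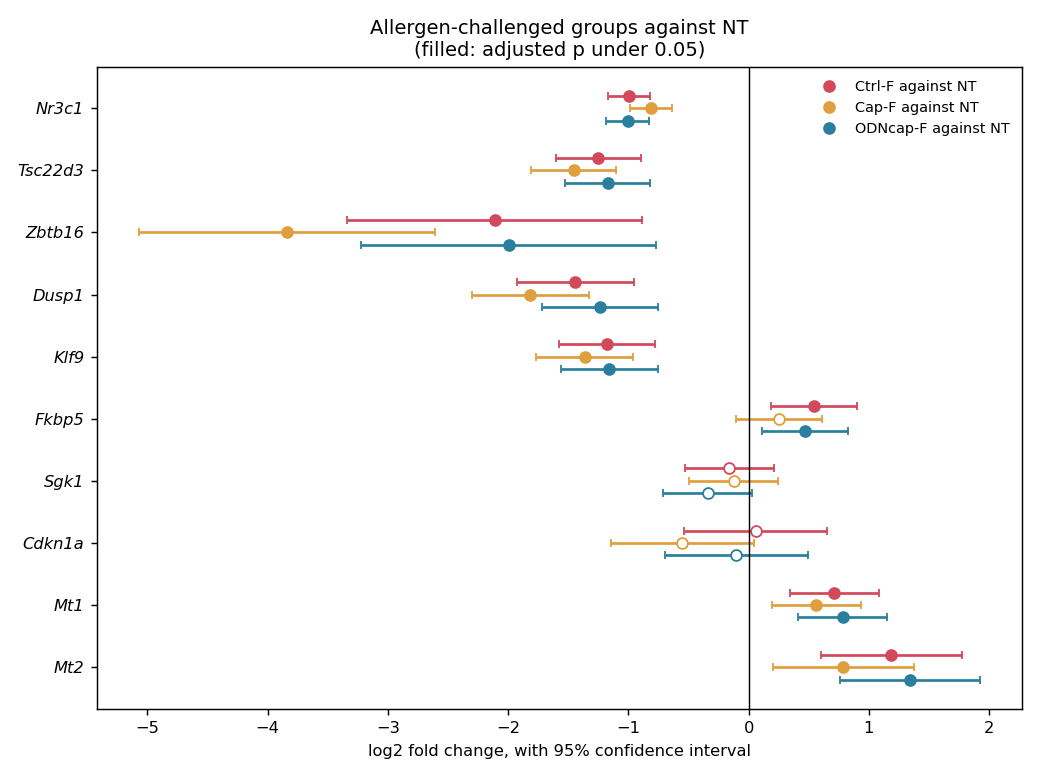
Log2 fold change against NT (x axis) with its 95% confidence interval for the 10 genes (rows) in each challenged group, filled where the limma adjusted p was under 0.05. *Zbtb16* in Cap-F lay farthest from 0 at -3.84, and *Sgk1* and *Cdkn1a* were open in all 3 comparisons.

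Counted together, 8 of the 10 genes passed the test in Ctrl-F against NT, 3 higher (*Fkbp5*, *Mt1*, *Mt2*) and 5 lower (*Nr3c1*, *Tsc22d3*, *Zbtb16*, *Dusp1*, *Klf9*). Of all genes tested, 61.9% passed in that comparison, 26.2% higher and 35.7% lower, so the count is read against a background in which most genes differed between these groups. In Cap-F against NT 7 passed, 2 higher and 5 lower, beside 56.6% of all genes, 24.1% higher and 32.4% lower. In ODNcap-F against NT 8 passed, 3 higher and 5 lower, beside 60.0% of all genes, 25.1% higher and 34.9% lower. Beyond a fold of 2 there were 5 genes in Ctrl-F, 4 in Cap-F and 6 for ODNcap-F, against 22.8%, 19.6% and 20.7% of all genes. Mice did not overlap with NT for 3 higher and 5 lower genes in Ctrl-F (35.5% and 48.5% of all genes), 3 and 7 in Cap-F (34.3% and 47.8%), and 3 and 6 in ODNcap-F (34.2% and 48.1%). The median log2 change of the 10 genes was -0.58, -0.68 and -0.67 in the same order, and that of all genes was -0.12, -0.11 and -0.12. At an unadjusted p under 0.05, 8, 7 and 8 genes passed, beside 66.4%, 61.9% and 64.8% of all genes. The local-pooled-error test that the methods name called 8, 8 and 9 genes in the same order, beside 52.8%, 46.2% and 47.7% of all genes, and those it added to the limma calls were *Cdkn1a* in Cap-F (adjusted p = 0.000738) and *Sgk1* in ODNcap-F (0.0458). The 3 comparisons share the NT mice, so they are not separate evidence of one another. With all 6 challenged mice set against NT, 8 genes passed, the 3 higher and 5 lower ones of Ctrl-F, and none of these 8 overlapped with NT. Of all genes 66.4% passed, 27.7% higher and 38.7% lower, 28.9% lay higher and 40.6% lower without overlap, and 21.2% passed with a fold over 2, as 5 of the 10 did. Without the second NT mouse *Fkbp5* did not pass here (log2 0.23, adjusted p = 0.149). The fit gave log2 changes from -2.65 for *Zbtb16* to 1.11 for *Mt2* and the smallest adjusted p, 5.86e-05, for *Nr3c1*.

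For 5 genes a second probe on the array gave a further reading, which for *Mt1* came from the probe to a predicted transcript. Direction was the same for both probes of each gene in every comparison with NT. Calls differed only for *Mt1* in Cap-F. For *Fkbp5* the dimmer probe gave the larger change and for *Nr3c1* and *Tsc22d3* the smaller one.

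**Figure D3:**
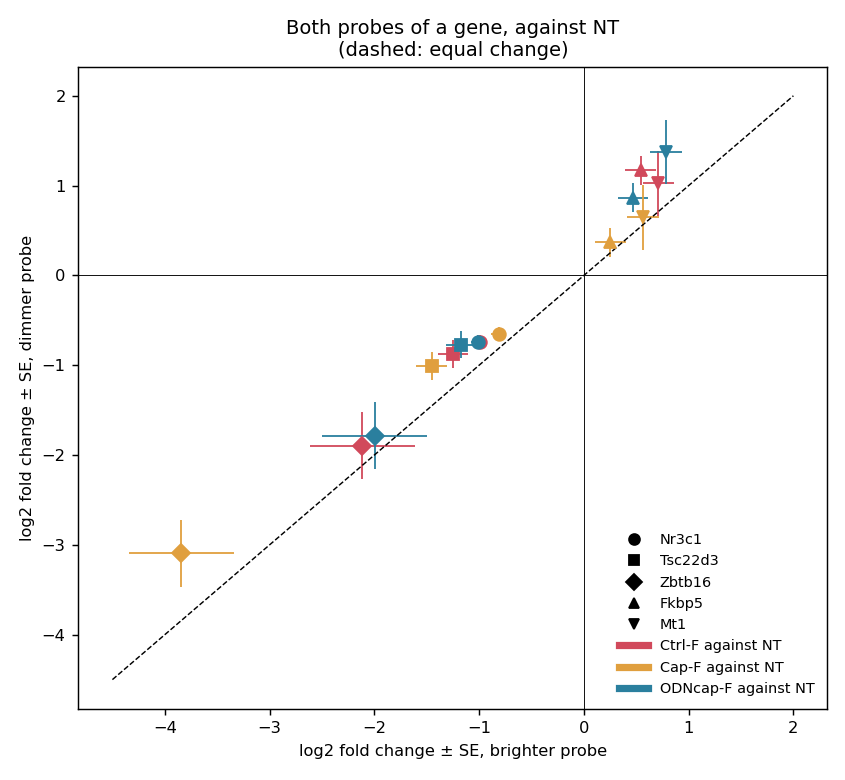
Log2 fold change against NT with its SE for the brighter (x axis) and the dimmer probe (y axis) of the 5 genes with 2 kept probes, colored by challenged group, with a dashed line where both are equal. Every point lies to the lower left or the upper right of 0, so both probes of a gene moved the same way, and *Fkbp5* in Ctrl-F stands above the line at 0.54 and 1.17. The dimmer *Zbtb16* probe in Cap-F is a bound.

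Most genes around the receptor fell in Ctrl-F. Of 17 genes of the receptor complex and steroid supply, 15 were tested, and in Ctrl-F against NT 12 fell and 3 did not pass, beside 35.7% of all genes that fell, with a median log2 change of -0.52 against -0.12 over all genes. *Hsd11b1*, which regenerates active corticosterone inside cells, fell by 1.64 (SE 0.11, limma adjusted p = 0.000109), from 13.56 and 13.71 in NT to 11.88 and 12.11 in Ctrl-F. *Nr3c2*, the mineralocorticoid receptor, fell by 1.12. In Cap-F 10 fell and in ODNcap-F 12 (32.4% and 34.9% of all genes), and in all 3 comparisons each of the 15 fitted log2 changes was below 0.

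Other known glucocorticoid-induced genes went both ways. Of 24 tested in Ctrl-F against NT, 13 fell, 5 rose and 6 did not pass, beside 35.7% lower and 26.2% higher of all genes, and the median log2 change was -0.38. *Crispld2*, a secreted protein induced by glucocorticoids in airway smooth muscle, fell by 2.53 on the log2 scale, the TGF-β co-receptor *Tgfbr3* fell by 2.10, and the epithelial sodium channel subunit *Scnn1a* fell by 1.42. The decoy receptor *Il1r2* rose by 3.53, the macrophage hemoglobin scavenger receptor *Cd163* by 2.69 and the iron-binding *Lcn2* by 2.38. *Cd163* and *Il1r2* are expressed by myeloid cells, and alveolar macrophage and eosinophil markers moved with challenge as given above. The neutrophil sum was 42200 to 53200 in NT, 34600 to 37000 in Ctrl-F, 41700 to 42500 in Cap-F and 26200 to 42700 in ODNcap-F. The Cap-F and ODNcap-F ranges overlapped that of NT. Of 4 tested neutrophil markers 2 rose and 1 fell in Ctrl-F against NT, and *S100a9* was the brightest. Alveolar type 1, club and endothelial markers mostly fell, as given above. The part of any cell type in these rises or falls was not tested. In Cap-F 14 fell and 5 rose (32.4% and 24.1% of all genes), and in ODNcap-F 12 fell and 4 rose (34.9% and 25.1%).

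Of 24 tested relatives of the 10 genes by family, 15 fell and 4 rose in Ctrl-F against NT (median log2 change -0.56), beside 35.7% and 26.2% of all genes. *Tsc22d1* fell by 1.78, *Cdkn1c*, a kinase inhibitor of the same family as *Cdkn1a*, fell by 2.06, and *Nr3c2* is also counted here. The MAP kinase phosphatases *Dusp4* and *Dusp2* rose by 1.62 and 1.38, opposite to *Dusp1*, and *Zbtb7b* rose by 0.25.

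Of 19 genes of metal handling tested in Ctrl-F against NT, 5 rose and 7 fell, with a median of -0.19, close to the shares of all genes (26.2% and 35.7%), so the count sets the list apart in neither direction. The zinc importer *Slc39a14*, which is known to rise in inflammation, went from 8.34 and 8.29 in NT to 9.39 and 9.58 in Ctrl-F (log2 change 1.18, SE 0.09, limma adjusted p = 0.000191), and *Slc30a5* and *Slc39a1* rose by 0.55 and 0.52. *Slc30a1*, a zinc exporter, went from 10.72 and 10.57 to 9.52 and 9.74 (log2 change -1.02, SE 0.12, limma adjusted p = 0.000696), and *Slc39a3* and *Slc30a2* changed by -1.12 and -0.79.

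The p53 list held *Trp53*, the gene of p53, and targets of p53, which also drives *Cdkn1a*. In Ctrl-F against NT 6 of its 15 genes were higher and 4 lower, beside 26.2% and 35.7% of all genes. Its median log2 change was 0.19, against -0.12 over all genes. *Gtse1*, a gene of dividing cells, rose by 3.06, *Pmaip1* by 1.02 and *Trp53* itself by 0.59, while *Gdf15* fell by 0.73, *Phlda3* fell by 0.72 and *Bbc3* fell by 0.41.

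**Figure D4:**
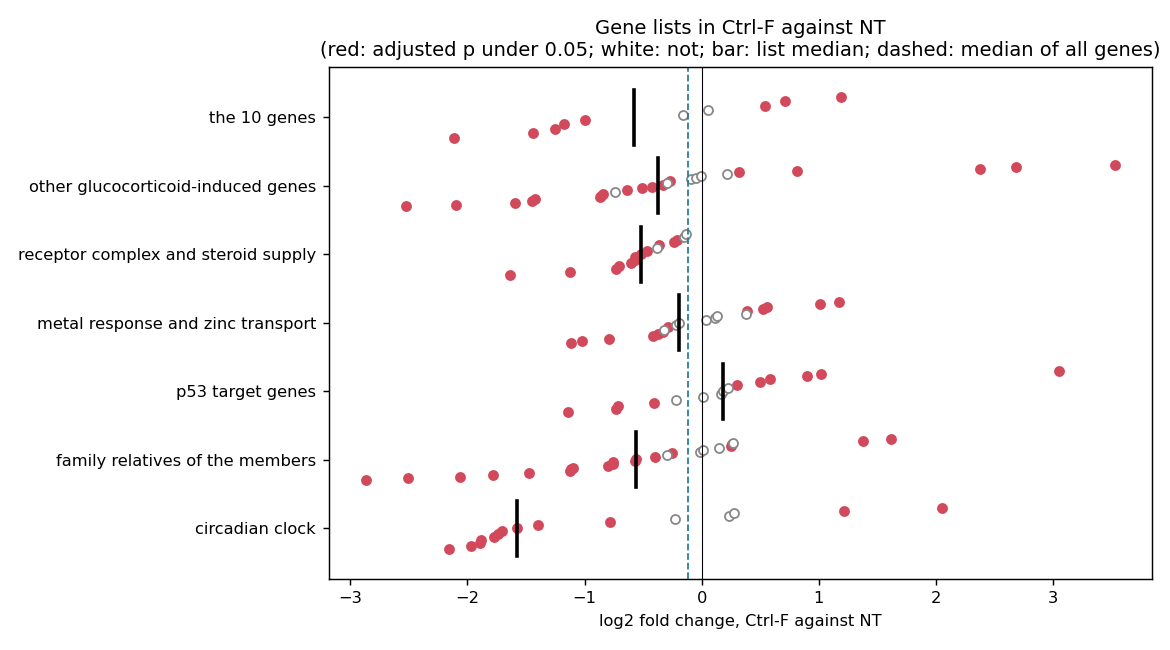
Log2 fold change in Ctrl-F against NT (x axis) of every tested gene of 7 lists (rows), red where the limma adjusted p was under 0.05, with a bar at each list's median and a dashed line at the median of all genes, -0.12. The clock list has the lowest median, -1.58, and the list of metal handling spreads to both sides of 0.

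Clock genes moved with challenge as well. Glucocorticoids are secreted in a daily rhythm and several of the 10 genes follow it, so the 16 clock genes were read beside them. In Ctrl-F against NT 10 of 15 tested fell and 2 rose, beside 35.7% and 26.2% of all genes, with a median log2 change of -1.58. The repressor *Cry2* fell by 1.89 and the clock output factors *Hlf* and *Tef* changed by -1.74 and -1.71, and *Nfil3*, which opposes them at the same sites, rose by 2.05 and *Bhlhe40* by 1.22. The summed clock level was 86600 to 94700 in NT and 30800 to 40300 in the challenged mice. The hour of day at which lungs were taken is not given in the sources used here, and its part in the result was not tested.

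Immediate early genes respond within minutes to a stimulus, and *Dusp1* also belongs to this class. Their summed level was 35800 to 39300 in NT and 34300 to 41700 after challenge, and of 11 genes 4 rose and 3 fell in Ctrl-F against NT, beside 26.2% and 35.7% of all genes. *Egr2*, *Atf3* and *Egr3* rose by 3.64, 3.36 and 1.94 on the log2 scale, and *Ier3*, *Jun* and *Ier2* changed by -1.46, -0.74 and -0.52.

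Among the challenged groups, the question was whether feed with particles, with or without CpG oligodeoxynucleotide, changed these genes. None of the 10 genes passed the test in Cap-F against Ctrl-F, ODNcap-F against Ctrl-F or ODNcap-F against Cap-F by limma, and of all genes 0.00345%, 0% and 0.00345% passed. At an unadjusted p under 0.05, 3 genes passed in Cap-F against Ctrl-F (*Zbtb16*, *Cdkn1a*, *Nr3c1*), 0 in ODNcap-F against Ctrl-F and 3 in ODNcap-F against Cap-F (*Zbtb16*, *Dusp1*, *Nr3c1*), beside 16.6%, 6.78% and 13.4% of all genes. The local-pooled-error test called *Zbtb16* and *Cdkn1a* in Cap-F against Ctrl-F and *Zbtb16* and *Dusp1* in ODNcap-F against Cap-F, where it called 1.49% and 0.849% of all genes.

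*Zbtb16* differed most. It was 3.31-fold lower in Cap-F mice than Ctrl-F mice (log2 -1.73, SE 0.50, 95% interval -2.96 to -0.50, limma adjusted p = 0.215) and 3.59-fold higher in ODNcap-F mice than Cap-F mice (log2 1.84, interval 0.62 to 3.07, adjusted p = 0.275), without overlap of mice in either. ODNcap-F and Ctrl-F differed by 0.12, with an interval from -1.11 to 1.35 that leaves room for a change of more than 2-fold either way. By the dimmer probe, with its bound for Cap-F, the level was at least 2.30-fold lower in Cap-F mice than Ctrl-F mice (limma adjusted p = 0.227) and at least 2.48-fold higher in ODNcap-F mice than Cap-F mice (adjusted p = 0.285).

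*Dusp1* was 0.58 higher in ODNcap-F mice than Cap-F mice (95% interval 0.09 to 1.07, limma adjusted p = 0.337), and *Cdkn1a* was 0.61 lower in Cap-F mice than Ctrl-F mice (interval -1.20 to -0.01, adjusted p = 0.300). *Nr3c1* was 0.18 higher in Cap-F mice than Ctrl-F mice (interval 0.00 to 0.36, adjusted p = 0.303) and 0.19 lower in ODNcap-F mice than Cap-F mice (adjusted p = 0.362). *Mt2* was 0.56 higher in ODNcap-F mice than Cap-F mice (interval -0.03 to 1.14, adjusted p = 0.400). These sizes were all below 1 log2 unit, and none passed the adjusted test.

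In ODNcap-F against Cap-F, mice of the groups did not overlap for 7 genes that were higher and 2 that were lower (*Nr3c1* and *Sgk1*), leaving *Mt1* as the overlapping gene, against 21.0% and 24.7% of all genes without overlap in each direction. In Cap-F against Ctrl-F, 1 gene (*Nr3c1*) lay higher and 6 lower without overlap, against 25.9% and 25.8% of all genes. In ODNcap-F against Ctrl-F, 9 of the 10 genes overlapped, and *Tsc22d3* was higher without overlap (17.0% of all genes were). The comparisons with Cap-F share its 2 mice. Summed markers of cardiomyocytes (5 genes, 11500 to 24100 in NT) were 2500 to 3930 in Ctrl-F, 2980 to 12400 in Cap-F and 8870 to 13800 for ODNcap-F. Among them *Actc1* differed little, at log2 intensities of 10.56 and 11.15 in Ctrl-F and 10.96 and 11.10 in ODNcap-F. Adipocyte sums (5 genes, 3150 to 3980 in NT) were 1780 to 2230, 1520 to 3520 and 3650 to 5590 in the same group order. Goblet cell sums were 121000 to 147000, 127000 to 197000 and 170000 to 207000. In challenged mice the brightest adipocyte marker was *Fabp4*, which is also on the alveolar macrophage list. No marker of these lists passed the limma test in a feed comparison, and the part of these cell types in the differences was not tested.

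**Figure D5:**
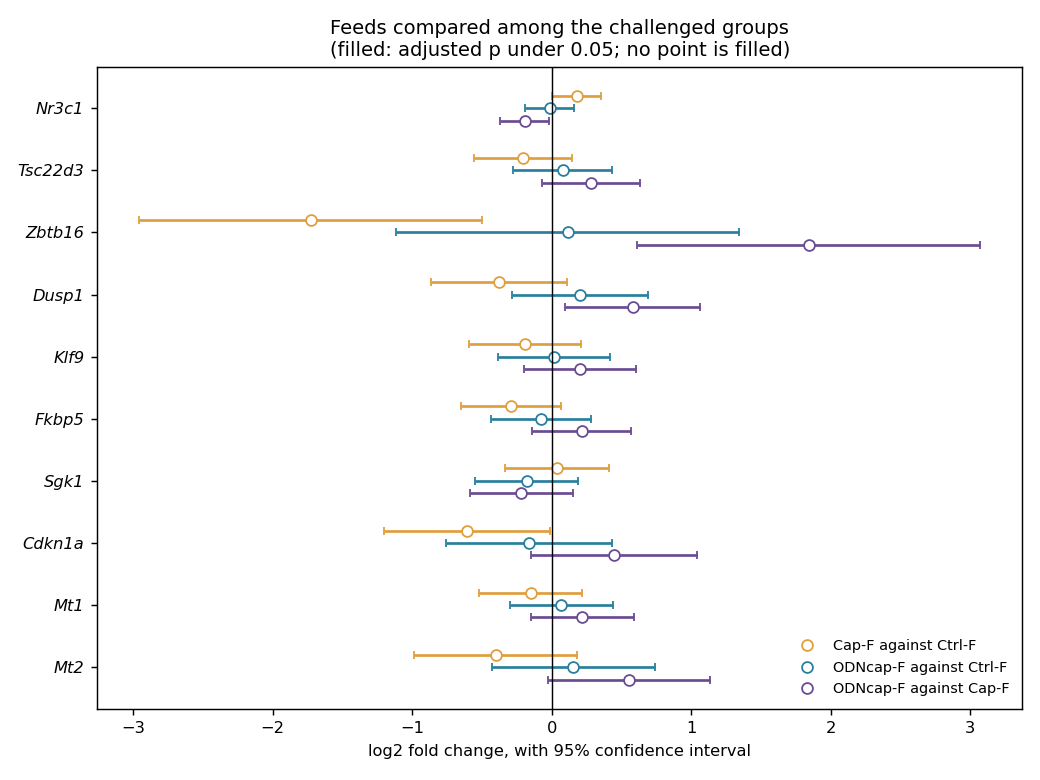
Log2 fold change (x axis) with its 95% confidence interval for the 10 genes (rows) in the 3 comparisons among challenged groups. No point is filled, since no limma adjusted p was under 0.05, and *Zbtb16* stands apart at -1.73 (Cap-F against Ctrl-F) and 1.84 (ODNcap-F against Cap-F).

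Across the 8 arrays, the metallothioneins ran in parallel (Pearson r = 0.990 for *Mt1* with *Mt2*), as did *Tsc22d3* with *Klf9* (0.985) and with *Dusp1* (0.942). *Nr3c1* ran with *Tsc22d3* (0.896) and against *Mt1* (-0.912). *Cdkn1a* was closest to *Zbtb16* (0.705) and *Sgk1* to none (at most 0.546 in the positive direction). These are descriptions over 8 arrays that share the step between NT and challenged mice. Of 16573 named genes, those most like *Zbtb16* were *Sdc1* (r = 0.998), *C230014O12Rik* (0.986) and *Ltbr* (0.985). However, *Sdc1* spanned only 10.92 to 11.24 and *Ltbr* only 11.80 to 12.18 on the log2 scale, and *C230014O12Rik* was dim, at 4.31 to 6.07. Most like *Mt2* were *Mt1*, *Snora52* (0.987) and *Qtrt1* (0.985), of which *Snora52* was dim, at 4.96 to 5.93.

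With 2 mice per group, an exact two-sided permutation test of a single gene cannot go below p = 0.333, so the p-values above rest on the spread shared across probes and arrays.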

How the data were processed

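The authors deposited, for each array, the scanner output of Agilent Feature Extraction 11.0 with the background-subtracted intensity of every spot, not normalized between arrays, and 1 table of quantile-normalized log2 values of 32312 probes. The intensities of 59305 spots per array were used after 792 flagged spot values were set to missing. They were transformed to log2, averaged into 56605 probes and quantile normalized over 8 arrays. Kept were 37117 probes that stood well above background on the 2 arrays of any group. The scanner output holds accessions only, and 32994 probes (58.3%) matched a RefSeq gene name.

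A single model without covariate was fitted to the 8 arrays (limma 3.58.1, R 4.3.3), with 4 residual and 1.96 prior degrees of freedom. A gene passed at a Benjamini-Hochberg adjusted p under 0.05 over all kept probes. The brightest probe stood for a gene. The methods name the local-pooled-error test, which was rebuilt as an alternative with 100 bins.

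The 10 genes, the lists and the tests were chosen with earlier results of these data known. Named were all 10 genes, up to 3 genes higher and 3 lower with the smallest p in Ctrl-F against NT from each other list, and the 3 genes most correlated with *Zbtb16* and with *Mt2*. A gene that this rule names is not reported here. Alternatives were 75th percentile scaling, normexp with an offset of 50, the deposited table, no filter or a stricter one, a replicate block, an intensity trend, fits of the compared groups alone, each array left out, the mean of a gene's probes, the local-pooled-error test, an unadjusted p and a fold over 2. Nothing states that RNA of the 2 mice of a group was handled independently, so p-values measure the spread between these samples. The number of arrays limits the precision.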

Additional observations from a re-analysis of the deposited data

How the results depend on the processing

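Of the 10 genes, *Tsc22d3*, *Dusp1* and *Klf9* kept their direction and their call against NT in every challenged group under each alternative run, as did *Nr3c1* except where a fold over 2 was required, since it was 1.99-fold lower in Ctrl-F, 1.76-fold in Cap-F and 1.92-fold in the groups together. The number of genes past the test ranged, with each array left out in turn, from 7 to 8 in Ctrl-F against NT, 5 to 7 in Cap-F, 7 to 8 in ODNcap-F and 8 to 9 with the challenged groups together, and was 0 in each feed comparison. With a fold over 2 required as well, 5, 4 and 5 genes remained in Ctrl-F, Cap-F and the groups together against NT. In both comparisons with Cap-F among challenged mice, 3 genes passed each at an unadjusted p, and 2 each by the local-pooled-error test. Deviations of same-numbered mice correlated between -0.0123 and 0.161 over pairs of groups, highest for Cap-F with ODNcap-F. Such correlations cannot decide whether the replicate numbers pair the samples. The replicate block changed 1 call, that of *Fkbp5* in ODNcap-F against NT (log2 0.47, limma adjusted p = 0.0549, which left 7 genes).

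Changes of sign arose only where a gene had not passed. With 75th percentile scaling *Sgk1* in Cap-F against Ctrl-F was -0.0511 and *Klf9* in ODNcap-F against Ctrl-F -0.00324. With 1 array left out, *Cdkn1a* against NT ranged from -0.30 to 0.42 in Ctrl-F, -0.46 to 0.26 in ODNcap-F and -0.56 to 0.16 together, and in Cap-F against Ctrl-F *Sgk1* ranged from -0.0109 to 0.0891 and *Mt1* from -0.323 to 0.0263. In ODNcap-F against Ctrl-F the ranges were -0.540 to 0.773 for *Zbtb16*, -0.139 to 0.173 for *Klf9*, -0.0305 to 0.00379 for *Nr3c1*, -0.180 to 0.0309 for *Fkbp5*, -0.103 to 0.512 for *Dusp1*, -0.381 to 0.0222 for *Sgk1*, -0.0813 to 0.222 for *Mt1* and -0.0673 to 0.379 for *Mt2*. Calls of *Fkbp5*, *Mt2* and *Mt1* near the threshold were lost under some settings: *Mt2* in Cap-F without a filter (adjusted p = 0.0698) and in the fit of those groups alone (0.0554), *Mt1* in Cap-F with the mean of its probes (0.0721), and *Fkbp5* in fits of the compared groups alone (0.0535 in Ctrl-F, 0.0711 in ODNcap-F) and in ODNcap-F without a filter (0.0644). *Cdkn1a* in Cap-F passed with normexp (0.0334) and an intensity trend (0.0481), and *Sgk1* in ODNcap-F with the trend (0.0433). Both also passed the local-pooled-error test there (0.000738 and 0.0458). The cause was not tested. The local-pooled-error test and the fits of compared groups were not run for the challenged groups together.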
